A study of Mus musculus with 4 samples.

Results

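Semaphorins and ephrins are ligands that steer cells by contact or over short distances. The genes described here encode semaphorins, their plexin receptors, ephrins and the Eph receptors that bind them: 49 genes of the 22180 that the array table names with a probe set of their own. They were chosen by gene symbol, and each is represented by its brightest probe set on average. The 49 are 19 semaphorin, 9 plexin, 8 ephrin and 13 Eph receptor genes.

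Expression was measured in 4 mouse cell cultures, on 1 array each. A 10 day and a 38 h array hold induced pluripotent stem cells (iPSC), stable clones obtained from fibroblasts with Sumo2 knockdown; what these times count is not stated in the labels. The other arrays hold repMEFs, mouse embryonic fibroblasts that can be reprogrammed, at day 6, one with Sumo2 knockdown and one with knockdown of Firefly, an insect luciferase that mouse cells lack. All cells have the Black6-129X1/SvJ background and a pool of both sexes and were grown in ESC media. Ascorbic acid and doxycycline, given to repMEFs, are listed for every sample, the Firefly control included. Values are log2 expression after RMA, which normalizes arrays to nearly equal distributions. A gene counted as measured where it reached the median of all single-gene probe sets, the measuring floor of 6.64 to 6.67, on at least 1 of the arrays compared. Below that floor a value is read as background, and a fold marked "at least" is counted from the floor.

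The Sumo2 transcript was 10.56 in the culture labelled Sumo2 knockdown and 10.65 in the Firefly culture, which is 93.8% of the control, so every direction drawn from that culture rests on its label. All 8 pluripotency markers rose in iPSC over day 6 cultures, among them Nanog (11.9-fold), and their mean level was 11.36 and 11.35 in 10 day and 38 h iPSC, 8.60 in the Sumo2 culture and 6.77 in the Firefly culture. Of 8 fibroblast markers, 2 fell (Thy1 and Prrx1) and 0 rose, and 6 to 8 of them stood above the floor on each array, with mean levels of 8.29 and 8.69 in 10 day and 38 h iPSC, 9.18 in the Sumo2 culture and 9.72 in the Firefly culture. Of the other cell types listed, the endothelial genes Cdh5, Kdr, Emcn and Cldn5 were near or below the floor on all arrays, and Ptprc and Adgre1 of blood cells were below it throughout. Above the floor on the 10 day, 38 h, Sumo2 and Firefly arrays were 3, 2, 2 and 1 of 7 endothelial markers, 4, 4, 2 and 3 of 6 neural and glial markers, and 2, 2, 1 and 3 of 6 macrophage and blood markers. Of these lists Pecam1, Tubb3, Olig2, Cd68 and Lyz2 rose in iPSC and Tek fell. In bulk RNA, fewer cells of a type and less RNA per cell cannot be told apart, and the part of cell makeup in the results below was not tested.

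In semaphorin signalling, class 3 proteins are secreted and mostly bind neuropilins, which hand the signal to class A plexins, while classes 4 to 6 span the membrane and class 7 is held by a lipid anchor. Plexins act inside the cell on small GTPases and the cytoskeleton. Ephrin-A proteins are held by a lipid anchor and ephrin-B proteins cross the membrane; EphA receptors prefer the first and EphB receptors the second, and because ligand and receptor both sit on cells, signals can run both ways and sort cells at boundaries.

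Between iPSC and day 6 cultures, 2 of 8 measured ephrins and 3 of 10 measured Eph receptors fell and 0 rose. Of 15 measured semaphorins 4 rose and 1 fell. Over all measured genes 14.3% rose and 9.12% fell. Efna2, Efnb3 and Epha2 were higher at adjusted p but under 2-fold. Efnb1 fell 7.74-fold and Efna5 at least 7.04-fold in iPSC, and the receptor genes Epha7, Epha1 and Epha3 also fell. Sema4g rose at least 2.62-fold, Sema5b 2.38-fold, Sema4d 2.14-fold and Sema6c 2.07-fold. Among the plexins Plxnb1 rose and Plxna2 fell, and Sema6d was the 1 semaphorin to fall. A gene is said to rise or fall here where limma gave an adjusted p below 0.05 and the means as read lay 2-fold apart or more. The arrays of each side are different conditions and not replicates, so knockdown and line differences enter the spread used by this test.

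In all, 39 of the 49 genes were measured, 5 of these rose and 7 fell, which is 12.8% and 17.9% of the measured. Of all 12735 measured genes 14.3% rose and 9.12% fell. The share that rose is close to the background. Of the 39 genes, 3 were measured through iPSC arrays alone (Sema4f, Sema4g, Plxnd1) and 3 through day 6 arrays alone (Sema6d, Epha3, Epha8), so a difference was built into their being measured. By adjusted p alone, with no size rule, 9 genes were higher and 11 lower, against backgrounds of 29.0% and 17.8%. The median log2 difference of the measured genes was -0.05, and that over all measured genes 0.15. After cyclic loess the median over all genes was 0.03. Relative to 0.15, all 7 genes that fell were still 2-fold lower and 3 of the 5 that rose (Sema4g, Sema5b and Plxnb1) still 2-fold higher. Cyclic loess itself called 2 higher (20.0% of the called) and 8 lower, against 5 higher (41.7%) with the deposited values.

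**Figure D1:**
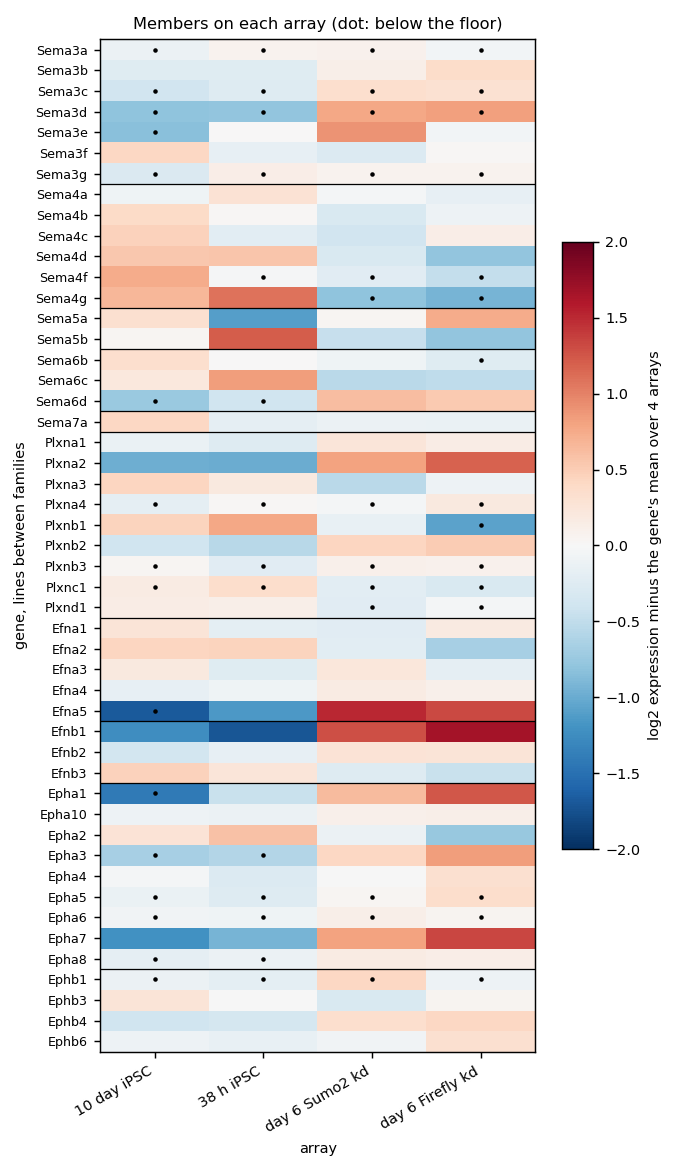
Log2 expression of the 49 genes (rows, grouped by family) on the 10 day iPSC, 38 h iPSC, day 6 Sumo2 knockdown and day 6 Firefly knockdown arrays (columns), each minus the mean of that gene over the 4 arrays, with a dot where the value lay below the measuring floor. Efna5, Efnb1, Epha7 and Plxna2 are blue in both iPSC columns and red in both day 6 columns, and 10 genes are dotted on all 4 arrays.

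The starts of 4 of these genes are shown because they are the 2 that rose and the 2 that fell by the most among called genes with exactly 1 start in the promoter table. The windows run from 250 bases before to 50 after the start, 5′ to 3′ on the gene's strand, from RefSeq with build GRCm38.p6. They are chr19:44989094-44989393 on the plus strand for Sema4g, chr16:35541112-35541411 on the plus strand for Sema5b, chrX:99135811-99136110 on the plus strand for Efnb1 and chr17:62881268-62881567 on the minus strand for Efna5. Capitals mark the GC box GGGCGG on either strand.
Sema4g: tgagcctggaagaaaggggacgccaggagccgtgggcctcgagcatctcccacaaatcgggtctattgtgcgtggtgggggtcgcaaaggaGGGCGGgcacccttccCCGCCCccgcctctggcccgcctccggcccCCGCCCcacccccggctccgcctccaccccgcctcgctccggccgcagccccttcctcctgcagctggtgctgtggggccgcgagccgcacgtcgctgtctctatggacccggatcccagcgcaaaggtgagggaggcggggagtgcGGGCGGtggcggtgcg
Sema5b: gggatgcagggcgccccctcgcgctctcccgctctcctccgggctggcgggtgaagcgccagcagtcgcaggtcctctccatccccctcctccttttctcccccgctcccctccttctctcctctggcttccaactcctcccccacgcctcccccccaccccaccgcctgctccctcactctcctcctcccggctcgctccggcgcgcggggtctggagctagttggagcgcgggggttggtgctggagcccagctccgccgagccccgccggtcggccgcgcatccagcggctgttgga
Efnb1: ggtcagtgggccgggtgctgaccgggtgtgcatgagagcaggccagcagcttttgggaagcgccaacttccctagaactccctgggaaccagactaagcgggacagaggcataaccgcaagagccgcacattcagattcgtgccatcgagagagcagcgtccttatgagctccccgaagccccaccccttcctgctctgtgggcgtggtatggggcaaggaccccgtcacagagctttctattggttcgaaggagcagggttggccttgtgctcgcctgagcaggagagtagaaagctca
Efna5: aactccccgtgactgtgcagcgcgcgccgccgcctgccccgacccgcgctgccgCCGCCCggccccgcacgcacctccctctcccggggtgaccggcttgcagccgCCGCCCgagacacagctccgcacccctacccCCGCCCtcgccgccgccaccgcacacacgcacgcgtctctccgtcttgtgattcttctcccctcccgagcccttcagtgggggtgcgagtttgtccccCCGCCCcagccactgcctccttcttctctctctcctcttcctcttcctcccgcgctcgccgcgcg
Sema4g and Efna5 each held 4 GC boxes, while Sema5b and Efnb1 held 0. CpG dinucleotides numbered 30, 27, 14 and 38 in Sema4g, Sema5b, Efnb1 and Efna5, against a median of 13 over 21262 windows of protein-coding genes. Over the 44 genes with a window, 44 of 58 windows held a GC box, against 46.2% of the windows of protein-coding genes. These 58 windows were also richer in G and C (median 64%, against 56.3%) and in CpG (median 19.5, against 13). The E-box CACCTG read by Zeb and Snail factors, the AP-1 site TGANTCA and the octamer ATGCAAAT were in 0 of the 4 windows shown. They were in 7, 3 and 0 of the 58 windows, and in 19.7%, 6.99% and 1.66% of protein-coding windows. Among the 4 windows shown, neither GC boxes nor CpG number separated the genes that rose from those that fell. Sema3b, Sema3f, Plxna1, Plxna4 and Efnb3 had no window in the table.

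Among the secreted class 3 semaphorins 0 of 3 measured genes passed the test, where 14.3% of all measured genes rose and 9.12% fell. Sema3a, Sema3c, Sema3d and Sema3g lay below the floor on all arrays. Sema3d, a guidance cue, read 4.66 and 4.68 in 10 day and 38 h iPSC and 6.24 and 6.29 in the Sumo2 and Firefly cultures. With no filter on low values it was called lower (log2 difference -1.59, limma adjusted p = 0.000673), but both groups are in the range of background. Sema3e, which binds Plxnd1 without a neuropilin, read 6.27 and 7.11 in 10 day and 38 h iPSC and 8.01 and 7.06 in the Sumo2 and Firefly cultures. The 38 h line and the Firefly culture were nearly equal, so the groups overlapped (limma adjusted p = 0.123). Without the 38 h array the difference of Sema3e was -1.26 as read, but it then rested on the 10 day value, which was below the floor. Sema3f, a ligand of Nrp2, differed by 0.26 (limma adjusted p = 0.4), and Sema3b by -0.49 (limma adjusted p = 0.0657).

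The class 4 semaphorins were measured in full, and 2 of 6 rose while 0 fell, where 14.3% of all measured genes rose and 9.12% fell. Sema4f and Sema4g were measured through iPSC arrays alone, which fixed their direction. Sema4g, a ligand of Plxnb2, read 7.84 and 8.26 in 10 day and 38 h iPSC and 6.38 and 6.25 in the Sumo2 and Firefly cultures. Both day 6 values were below the floor and both iPSC values above it. The log2 difference as read was 1.74 (SE of 0.21, limma adjusted p = 0.00151), at least 2.62-fold counted from the floor. Sema4d, also called CD100 and the ligand of Plxnb1, read 8.55 and 8.56 in 10 day and 38 h iPSC against 7.69 and 7.21 in the Sumo2 and Firefly cultures. The iPSC lines were nearly equal and higher than both day 6 cultures (log2 difference 1.10, SE 0.20, limma adjusted p = 0.00677). It kept adjusted p without the Firefly array, but the difference of 0.86 was then under 2-fold, and after cyclic loess it was 0.95. Sema4a, Sema4b, Sema4c and Sema4f differed by 0.20 to 0.71 and did not pass. For Sema4f the value of 6.84 in 10 day iPSC was the only one above the floor, and without the 38 h array it was called higher (1.09, limma adjusted p = 0.00905).

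The class 5 proteins carry thrombospondin repeats outside the cell, and 1 of the 2 genes rose, where 14.3% of all measured genes did. Sema5b read 8.43 and 9.61 in 10 day and 38 h iPSC and 7.94 and 7.61 in the Sumo2 and Firefly cultures. It rose, both lines being above both cultures (log2 difference 1.25, SE 0.38, limma adjusted p = 0.0346). This call was lost without the 38 h array (0.66), without the Sumo2 array (limma adjusted p = 0.102), without the Firefly array (limma adjusted p = 0.192) and after cyclic loess (limma adjusted p = 0.0571). Sema5a read 8.14 and 6.71 in 10 day and 38 h iPSC and 7.85 and 8.55 in the Sumo2 and Firefly cultures. The 10 day line lay between the day 6 cultures and the 38 h line below both, so Sema5a did not pass (-0.78, limma adjusted p = 0.214). Without the 10 day array it was called lower (-1.49, limma adjusted p = 0.00552), but without the 38 h array the difference was -0.06 (limma adjusted p = 0.885), so the value rests on the 38 h line.

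Class 6 proteins bind class A plexins and can also act as receptors. Sema6c read 7.76 and 8.38 in 10 day and 38 h iPSC and 7.003 and 7.04 in the Sumo2 and Firefly cultures. Both lines were higher, and the difference was just past 2-fold (1.05, SE 0.23, limma adjusted p = 0.0129). The call was lost without the 38 h array (0.74), the Sumo2 array (limma adjusted p = 0.0734) or the Firefly array (limma adjusted p = 0.0826), and cyclic loess put it at 0.95. Sema6d, a ligand of Plxna1, went the other way, at 5.80 and 6.16 in 10 day and 38 h iPSC and 7.18 and 7.08 in the Sumo2 and Firefly cultures. Both iPSC values were below the floor, so the fall is at least 1.38-fold; as read it was -1.15 (SE 0.22, limma adjusted p = 0.00708), and without the 10 day array it was -0.97. Sema6b (0.33) and the lipid-anchored Sema7a (0.25), which signals through integrins and Plxnc1, did not pass.

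Of the plexins, 6 of 9 were measured, and 1 rose and 1 fell, where 14.3% of all measured genes rose and 9.12% fell. Plxna2, a receptor that works with neuropilins and also binds class 6 semaphorins, read 7.42 and 7.41 in 10 day and 38 h iPSC and 9.20 and 9.58 in the Sumo2 and Firefly cultures. The lines were nearly equal and far below both cultures, a 3.92-fold fall (log2 difference -1.97, SE 0.19, limma adjusted p = 0.000743). Plxnb1, the receptor of Sema4d, read 8.06 and 8.38 in 10 day and 38 h iPSC, 7.48 in the Sumo2 culture and 6.55 in the Firefly culture. The Firefly value was below the floor, and the 4 arrays stood in the order 38 h, 10 day, Sumo2, Firefly. Plxnb1 rose at least 2.24-fold (log2 difference 1.21, SE 0.32, limma adjusted p = 0.0218). Without the Firefly array the difference was 0.75 (limma adjusted p = 0.0934), and the median over both of its probe sets gave 0.75 as well (limma adjusted p = 0.0438), with its second probe set below the floor on every array.

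The remaining plexins differed by less. Plxnb2, the receptor of Sema4c and Sema4g, read 11.06 and 10.91 in 10 day and 38 h iPSC and 11.90 and 11.97 in the Sumo2 and Firefly cultures. Both lines were lower, by 1.93-fold (-0.95, SE 0.11, limma adjusted p = 0.00132), just short of the size rule, and it was called lower after cyclic loess (-1.10) and without the 10 day array (-1.02). Plxna1, the main partner of neuropilins for many class 3 cues, was 1.31-fold lower (-0.39, limma adjusted p = 0.0338), and X-linked Plxna3 1.55-fold higher (0.63, limma adjusted p = 0.0447). A second, dimmer Plxna1 probe set, above the floor on every array, differed by -0.63. Plxna4, Plxnb3 and Plxnc1 were below the floor on all arrays, and Plxnd1 stood just above it on the iPSC arrays alone (6.75 and 6.72).

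**Figure D2:**
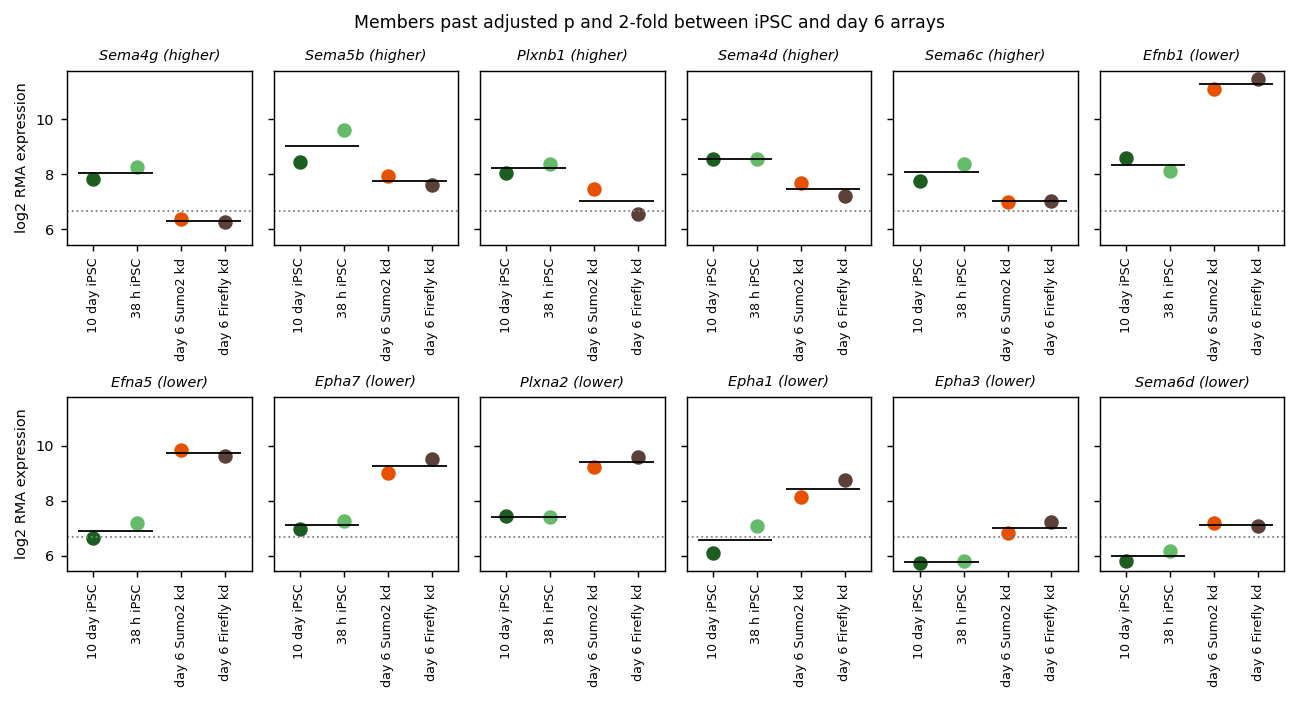
Log2 RMA expression of the 12 genes past adjusted p and 2-fold on each array (points: 10 day iPSC, 38 h iPSC, day 6 Sumo2 knockdown, day 6 Firefly knockdown), with the mean of each pair (lines) and the mean measuring floor (dotted). The iPSC points of Efnb1, Efna5, Epha7 and Plxna2 lie at 8.58 or lower and their day 6 points at 8.997 or higher, while Sema4g lies above the floor on iPSC arrays alone.

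The ephrin ligands were all measured, and 2 of 8 fell while 0 rose, where 9.12% of all measured genes fell and 14.3% rose. Efnb1, an X-linked transmembrane ligand of EphB receptors, read 8.58 and 8.10 in 10 day and 38 h iPSC and 11.11 and 11.48 in the Sumo2 and Firefly cultures. Both lines were far below both cultures, and the difference was the largest of the 39 measured genes (-2.95, SE 0.22, limma adjusted p = 0.000403). Efna5, a lipid-anchored ligand of EphA receptors, read 6.64 and 7.17 in 10 day and 38 h iPSC and 9.83 and 9.64 in the Sumo2 and Firefly cultures. The 10 day value was just below the floor, and the groups stood far apart (-2.83 as read, SE 0.22, limma adjusted p = 0.00044). Both genes were called in each of the 7 refits made with another scaling, probe set rule or trend setting, or without one array, with differences of -3.19 to -2.72 for Efnb1 and -3.09 to -2.56 for Efna5.

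The other ephrins differed by under 2-fold. Efna2, a lipid-anchored ligand, read 9.49 and 9.51 in 10 day and 38 h iPSC and 8.86 and 8.40 in the Sumo2 and Firefly cultures, higher in both lines by 1.83-fold (0.87, SE 0.20, limma adjusted p = 0.0141). It was called without the Sumo2 array (1.10, limma adjusted p = 0.0164). Efnb3 was 1.63-fold higher (0.71, limma adjusted p = 0.0196), and Efnb2, a marker of arteries, 1.44-fold lower (-0.53, limma adjusted p = 0.04). Efna1 (0.05), Efna3 (-0.05) and Efna4 (-0.26) did not pass, and these lay above the floor on every array. Each ephrin class thus held a gene that fell (Efna5, Efnb1) and another that was higher at adjusted p but short of 2-fold (Efna2, Efnb3). With no size rule 25% of the ephrins were higher at adjusted p, against 29.0% of all measured genes, so this share is near the background.

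Among the EphA receptors, 7 of 9 were measured, 3 fell and 0 rose, where 9.12% of all measured genes fell and 14.3% rose. Epha3, among the 3 that fell, was measured through the day 6 arrays alone, which fixed its direction. Epha7, a tyrosine kinase receptor of ephrin-A ligands, read 6.98 and 7.27 in 10 day and 38 h iPSC and 8.997 and 9.53 in the Sumo2 and Firefly cultures. The lines were both just above the floor and clearly lower than the cultures, a 4.40-fold fall (-2.14, SE 0.23, limma adjusted p = 0.00106). Epha1, the first Eph receptor to be described, read 6.09 and 7.06 in 10 day and 38 h iPSC and 8.13 and 8.75 in the Sumo2 and Firefly cultures. The 10 day value was below the floor and the 38 h value above it, and the fall was at least 2.98-fold (log2 difference -1.86, SE 0.36, limma adjusted p = 0.00757); without the Firefly array the adjusted p was 0.074 by limma. Epha3, a high-affinity receptor of Efna5, read 5.73 and 5.80 in 10 day and 38 h iPSC and 6.81 and 7.23 in the Sumo2 and Firefly cultures. Both iPSC values were below the floor and the day 6 values only a little above it (-1.26 as read, SE 0.23, limma adjusted p = 0.00653), so the fall is at least 1.28-fold.

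Epha2 stood apart from the receptors that fell. This receptor of epithelial and early embryonic cells read 9.91 and 10.22 in 10 day and 38 h iPSC and 9.52 and 8.87 in the Sumo2 and Firefly cultures, higher in both lines by 1.83-fold (0.87, SE 0.25, limma adjusted p = 0.0298). It was called higher without the 10 day array (1.02) and without the Sumo2 array (1.19). Epha4, which binds ephrins of both classes (-0.31), Epha8 (-0.29) and Epha10 (-0.22), which lacks kinase activity, did not pass, and Epha5 and Epha6 were below the floor throughout. Among the EphB receptors 0 of 3 measured genes rose or fell, where 14.3% of all measured genes rose and 9.12% fell. Ephb4, the partner of Efnb2 in vessels, was 1.69-fold lower (-0.75, SE 0.15, limma adjusted p = 0.00922), while Ephb3 (0.25) and the kinase-dead Ephb6 (-0.25) did not pass and Ephb1 was below the floor. The lines did not overlap the cultures for 9 of the 10 measured Eph receptors, lower in 8 and higher for Epha2; 32.7% of all measured genes were lower and 46.8% higher in this way. Epha3 and Epha8 were measured through the day 6 arrays alone, which fixed their direction, so the 8 are a description and not support for a shift of the receptors.

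**Figure D3:**
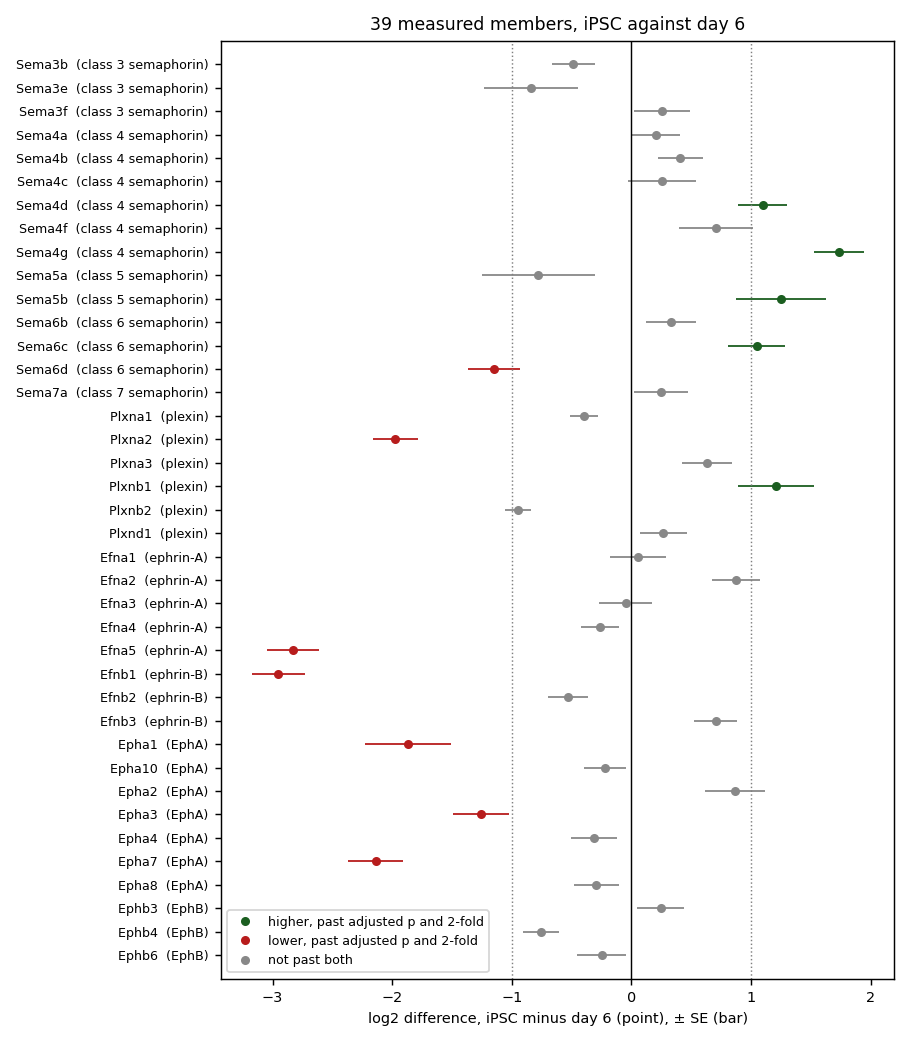
Log2 difference between the means of both iPSC lines and both day 6 cultures for the 39 measured genes (points, positive where iPSC were higher; bars ± SE from limma), grouped by family, with 2-fold marked by dotted lines. Efnb1 and Efna5 lie lowest, at -2.95 and -2.83, and Sema4g highest, at 1.74.

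The co-receptors and intracellular partners of the pathway were described from lists of 11 co-receptors, 28 plexin effectors and 28 Eph and ephrin effectors. These lists were chosen with earlier results of these data known. Of the 7 measured co-receptors 2 fell and 0 rose, where 9.12% of all measured genes fell and 14.3% rose. Met, the hepatocyte growth factor receptor that associates with class B plexins, fell at least 10.5-fold (log2 difference -3.46, SE 0.18, limma adjusted p = 0.000169), and Ptk7, a receptor-like pseudokinase of Wnt signalling, 2.13-fold. Nrp1 read 7.66 and 7.65 in 10 day and 38 h iPSC and 6.53 and 7.005 in the Sumo2 and Firefly cultures, higher in both lines by less than 2-fold (0.88, limma adjusted p = 0.0161). Nrp2 read 8.39 and 8.86 in 10 day and 38 h iPSC and 10.11 and 9.01 in the Sumo2 and Firefly cultures, and did not pass (-0.93, limma adjusted p = 0.0793).

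The plexin effector list was chosen with earlier results of these data known, so its shares are a description only. Of 26 measured plexin effectors 8 fell (30.8%) and 2 rose (7.69%), with a median of -0.56. Of all measured genes 9.12% fell and 14.3% rose, with a median of 0.15. Largest were Farp2 (-2.59), a Rac exchange factor bound by class A plexins, Mras (-2.40), a Ras-family GTPase, Dpysl2 (-2.18), also called CRMP2, which carries class 3 signals to microtubules, and Farp1 (-2.05). Of 27 measured Eph and ephrin effectors 1 rose (3.70%) and 2 fell (7.41%), with a median of 0.15, the same as over all measured genes, and a share that fell close to their 9.12%. Chn1, the Rac-inactivating protein alpha-chimaerin downstream of Epha4, rose at least 3.08-fold (log2 difference 1.79, SE 0.22, limma adjusted p = 0.00159). Adam10, a protease that cleaves ephrins, fell 2.10-fold and the adaptor gene Nck2 2.04-fold.

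Between the day 6 cultures the genes stayed within 2-fold. Of 36 measured in this pair, 0 were 2-fold higher and 0 were 2-fold lower in the culture labelled Sumo2 knockdown, and 0.945% and 0.230% of all 11740 genes were, so that few would be met among 36 genes in any case. At 1.5-fold 3 were higher and 2 lower, with backgrounds of 4.09% and 2.81%. The median size of the log2 difference, whatever its sign, was 0.33 over the 36 genes and 0.19 over all genes measured in this pair. It was likewise larger than over all genes between the iPSC lines (0.32 and 0.18) and between iPSC and day 6 cultures (0.71 and 0.52). The day 6 comparison is 1 array against 1 and has no test. Sema3e was highest, at 8.01 in the Sumo2 culture and 7.06 in the Firefly culture (1.94-fold), and Plxnb1 next, at 7.48 in the Sumo2 culture and 6.55 in the Firefly culture (at least 1.78-fold counted from the floor). Epha2 was at 9.52 in the Sumo2 culture and 8.87 in the Firefly culture. Lowest were Sema5a, at 7.85 in the Sumo2 culture and 8.55 in the Firefly culture, and Epha1, at 8.13 in the Sumo2 culture and 8.75 in the Firefly culture.

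By family, the Eph receptors lay lower in 8 of 10 cases, all but Epha2 (0.65) and Epha8 (0.03), with a median of -0.35. Among the 8 lower receptors, Epha10 (-0.03) and Ephb4 (-0.07) barely differed. Of all measured genes 46.3% were lower, with a median of 0.02. The ephrin ligands lay higher in 6 of 8 cases, all but Efna1 (-0.41) and Efnb1 (-0.37), with a median of 0.13. Of all measured genes 53.7% were higher, and among the 6 ephrins Efnb2 (0.01) and Efna4 (0.06) barely differed. Pluripotency markers were higher in the Sumo2 culture for 6 of 6 measured (median 2.50) and fibroblast markers lower for 8 of 8 (median -0.52); their part in these differences was not tested. Nrp2 was 1.10 higher in the Sumo2 culture and Nrp1 0.47 lower.

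The day 6 differences and the iPSC differences share the Sumo2 and Firefly arrays, so they are given side by side only. Of the genes that fell in iPSC, the Sumo2 minus Firefly difference was 0.19 for Efna5, -0.37 for Efnb1, -0.61 for Epha1, -0.42 for Epha3, -0.53 for Epha7, -0.37 for Plxna2 and 0.10 for Sema6d. Of those that rose it was 0.48 for Sema4d, 0.33 for Sema5b, -0.04 for Sema6c and 0.93 as read for Plxnb1, and Sema4g was not measured in either culture. Efna5 and Efnb1, the genes furthest apart between iPSC and day 6 cultures, thus each differed by under 1.5-fold between the day 6 cultures.

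Between the iPSC lines, 1 of 36 measured genes was 2-fold higher and 1 was 2-fold lower in the 10 day line, where 2.19% and 1.03% of all 11754 measured genes were. Both belong to class 5. Sema5a was 8.14 in 10 day and 6.71 in 38 h iPSC, 2.70-fold higher, and Sema5b was 8.43 in 10 day and 9.61 in 38 h iPSC, 2.27-fold lower. These 2 related ligands thus stood in opposite order in the lines. At 1.5-fold 4 genes were higher (Sema4c, Sema4f, Sema5a and Sema7a) and 4 lower (Sema3e, Sema5b, Sema6c and Epha1) as read, with backgrounds of 6.44% and 4.11%. Counted from the floor, Sema4f, Sema3e and Epha1 were under 1.5-fold. The 8 ephrin genes and the 6 measured plexins were within 1.5-fold between the lines. Met, Plxna2 and Sema4d, which differed clearly from day 6 cultures, were nearly equal in both lines (10 day minus 38 h -0.16, 0.01 and -0.01). For Met these were values at the floor, 6.54 in 10 day iPSC, below it, and 6.70 in 38 h iPSC, just above it. With 1 array a line these differences have no replicate check.

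**Figure D4:**
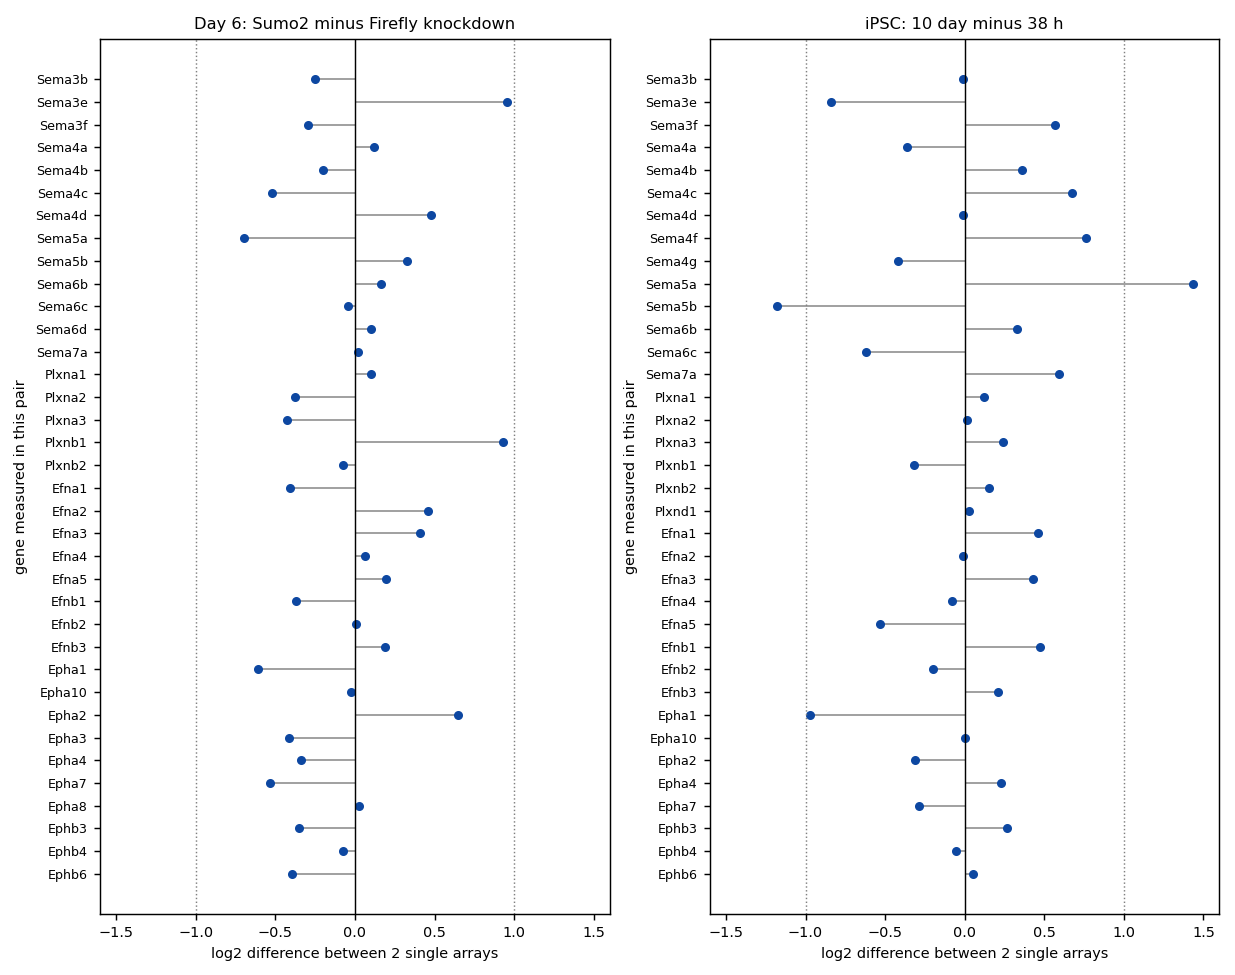
Log2 difference between single arrays for the 36 genes measured in each pair: Sumo2 minus Firefly knockdown at day 6 (left) and 10 day minus 38 h iPSC (right), with 2-fold marked by dotted lines. No gene reaches 2-fold at day 6, where Sema3e is highest at 0.95, and between the iPSC lines Sema5a (1.43) and Sema5b (-1.18) lie outside the lines.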

How the data were processed

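Total RNA of 4 cultures was hybridised to 1 array each. The deposited values are log2 expression per probe set. Per the submitters' processing notes, the authors made them by RMA with Affymetrix Expression Console; versions are not given in the sources used here. Their log base was taken from the RMA convention. RMA draws fold differences of dim probe sets towards 0, and quantile normalization hides changes of total RNA. The platform annotation pairs 23521 of the 41345 probe sets with 1 symbol, 1814 with several and 16010 with none; 22180 genes are named. Entrez identifiers of all 49 genes matched a mouse gene table of GRCm38.p6. The array's number limits the precision, and counting depth does not apply.

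iPSC lines and day 6 cultures were compared with limma 3.58.1 (R 4.3.3; lmFit, then eBayes with trend; 2 residual degrees of freedom), fitted over 12735 genes at or above the floor on at least 1 array, with Benjamini-Hochberg adjustment. The fit was tested on simulated data with independent noise and planted changes. Those data held no knockdown or line differences within a side, so that test does not bear on the calls made here. The labels do not tell whether cultures were independent, so p-values measure only the spread between these arrays. Single-array pairs got a 2-fold size rule and no p-value. All members may be named, with values on each array for those called or 2-fold apart in a pair; of the lists up to 4 called genes with the largest differences, and Nrp1 and Nrp2. Others are named where a count or an alternative turns on them. The members and lists were chosen with earlier results of these data known. Alternatives were cyclic loess, the median over probe sets, other floors and sizes, no trend, and each array left out. 1 semaphorin gene is not reported here, and Ephb2 was not analysed here.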

Additional observations from a re-analysis of the deposited data

How the results depend on the processing

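No paired analysis was possible because each condition has 1 array and the labels carry no replicate numbers. The count of genes that rose in iPSC was 5, and it was 2 after cyclic loess, 9 at 1.5-fold and 9 by adjusted p with no size rule; the count that fell was 7, and 11 with no size rule. Leaving out 1 array at a time gave 1 to 6 higher, the 1 being Sema4g without the Firefly array, and 6 to 8 lower; a lone array is then assumed to vary like the others. At 1.5-fold the day 6 pair gave 3 higher and 2 lower in place of 0 and 0, and the iPSC pair 4 and 4 in place of 1 and 1. Counted from the floor, 5 genes fell, without Sema6d and Epha3. With no filter or a floor at the 40th percentile Sema3d joined them. Efnb1, Efna5, Epha7, Plxna2, Epha3 and Sema4g were called in all 7 refits run for them. Calls of Sema5b and Sema6c were lost in 4 of 7 refits, those of Sema4d and Plxnb1 in 2 and those of Epha1 and Sema6d in 1. The cause of these changes was not tested. Signal near the floor limits Epha3, Sema6d, Sema4g, Epha1 and Plxnb1. The 10 day value of Efna5 also lay below the floor, and both iPSC values of Epha7 lay just above it.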
